A study of Mus musculus with 9 samples.

Results

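The comparison of pro-B cultures from Ts1Rhr mice with those from wild-type littermates took 6 of the 9 RNA libraries of the series, 3 per genotype, and 10878 of 23279 gene rows. Genes were kept where the mean raw FPKM over all 9 libraries was at least 1, and spike-in rows and rows named by a date were left out. FPKM count sequenced fragments relative to transcript length and to the fragments mapped in the library, so levels are per length. Ts1Rhr mice carry an extra copy of the stretch of mouse chromosome 16 from Cbr1 to Fam3b, in every cell. The labels place the Ts1Rhr animals on an F1 of FVB and C57BL/6 and give no background for the wild-type littermates. Genotype and strain therefore cannot be told apart from the labels alone. The remaining 3 libraries, from mice labelled Hmgn1-overexpressing on C57BL/6 (HMGN1_OE below; the construct is not described in the labels), lent their spread to the fit and are set beside the results.

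All 3 groups were treated alike. Whole bone marrow from animals aged 6 to 8 weeks was freed of red cells and grown for 7 days in methylcellulose with interleukin-7, a cytokine on which mouse pro-B cells depend. The colonies of a culture were then pooled, without a sort for B cells that the labels record. RNA from an equal number of cells per sample received 1 µl of ERCC spike-ins, synthetic RNAs of known concentration, diluted 1 in 1000, and polyadenylated RNA was sequenced. The labels call the samples biological replicates but do not say which animals they came from, so a p-value reflects only how far these samples scatter, which may be technical. Every sample, wild type included, carries the same cell type label, which names Ts1Rhr pro-B cells. The genotype was taken from the sample descriptions.

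Pro-B cells are the stage of B-cell development at which the immunoglobulin heavy chain gene is rearranged by the Rag recombinase. They divide in response to interleukin-7 and express the surrogate light chain, made from Vpreb1, Vpreb2 and Igll1, before a light chain exists. Trisomy of human chromosome 21, part of which corresponds to the Ts1Rhr segment, is known for a raised risk of B-cell leukaemia in childhood. Cultures of whole marrow in such medium can also hold macrophages and stromal cells, which make lysosomal enzymes, chemokines and extracellular matrix.

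Between 13120 and 14358 genes were above 0 in the raw table in these 6 libraries, and 10735 to 10893 reached 1 FPKM. Spike-ins made up 0.2% to 0.343% of summed raw FPKM. The defining B-lineage markers were present throughout, with Ebf1, a transcription factor that specifies the B lineage, at 20.3 to 42.5 raw FPKM in wild type and 55.1 to 60.3 in Ts1Rhr. Beside them stood abundant macrophage markers. The 40 macrophage markers summed to 10.1%, 8.23% and 8.53% of all raw FPKM in the wild-type libraries and to 6.15%, 5.65% and 5.63% in the Ts1Rhr libraries, so the groups did not overlap. Lyz2, lysozyme, carried 49.7% of that sum in wild type and 54.2% in Ts1Rhr. Summed, the 14 pro-B markers ran the other way, with 0.198%, 0.306% and 0.270% in wild type and 0.377%, 0.338% and 0.411% in Ts1Rhr. Of the 14, Cd79b, Il7r and Cd93 had a lower mean raw FPKM in Ts1Rhr. Neutrophil markers were low, at 0.0475% to 0.0663% in wild type and 0.0226% to 0.0537% in Ts1Rhr. In these pooled cultures, fewer cells of a type and less RNA per cell cannot be told apart. Haemoglobin genes (Hba-a1, Hba-a2, Hbb-b1, Hbb-b2), which mark red cells, were listed at 0 in all 6 libraries, which can be a failed estimate. Of 19 erythroid and megakaryocyte markers, 6 were at 0 in all 6 libraries. Others were present: Tfrc averaged 131 raw FPKM in wild type and 142 in Ts1Rhr, Pf4 30.5 and 12.4, and Vwf 12.9 and 6.80. Ts1Rhr replicate 3 was the only library of the 6 with the pattern of a male: Xist was at 0.443 raw FPKM against 94.2 to 193 in the other 5, and Ddx3y was at 41.8 raw FPKM. In wild-type replicate 1, the 10 most abundant genes took 23.1% of summed raw FPKM, the highest share of the 6 libraries.

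**Figure D1:**
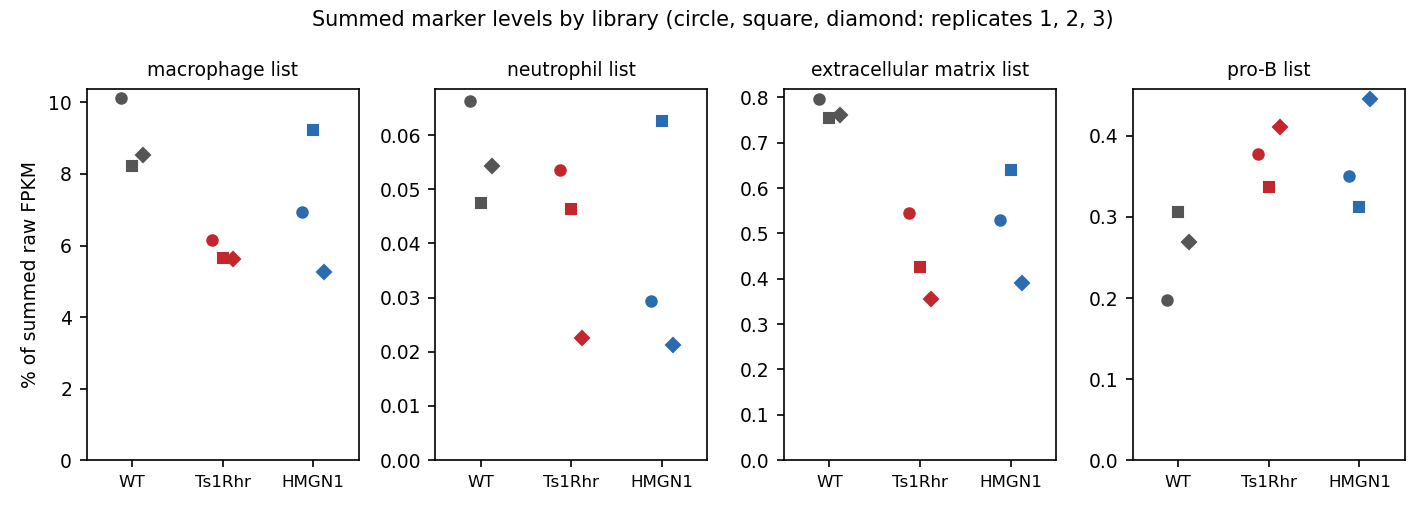
Summed raw FPKM of 4 marker lists as a percentage of all gene FPKM, by library and group (WT, wild type; HMGN1, HMGN1_OE), with a marker shape per replicate number and every axis starting at 0. Wild-type libraries lie above Ts1Rhr libraries in the macrophage and extracellular matrix lists and below them in the pro-B list.

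On the values that the authors normalised to the spike-ins, 46 genes were higher and 16 lower in Ts1Rhr than in wild type (limma, adjusted p under 0.05), which is 0.423% and 0.147% of the genes tested, or 0.57% together. On raw FPKM the same test called 467 genes higher and 496 lower, or 4.29% and 4.56%, together 8.85%. All 62 genes of the first set were called on raw FPKM as well, in the same direction, and their libraries did not overlap in either table. Groups failed to overlap at 30.2% of all tested genes in the normalised table (21.7% higher, 8.43% lower) and at 37.6% in the raw table (19.1% higher, 18.5% lower). Below, a gene is said to have risen or fallen on normalised values where it is 1 of the 62, and on raw values alone where it is 1 of the other 901. Fold changes come from normalised values unless stated otherwise. About 0.1 FPKM is contained in every value, which shrinks the change of low genes. The normalisation itself also shifted low genes upward in Ts1Rhr. Among genes with a mean raw FPKM from 1.00 to 4.10, the median log2 change was 0.27 on normalised and -0.04 on raw values. Among those from 4.10 to 9.25, where Kit lies, the median log2 change was 0.23 and 0.02. Rises of low genes could thus be larger on normalised values, as for Kit, at 3.13-fold against 2.64-fold on raw values. The median log2 fold change of all tested genes was 0.12 on normalised and 0.01 on raw values, and the mean log2 level was higher in Ts1Rhr at 59.9% and 51% of them. An unadjusted p under 0.05 was reached by 19.5% of tested genes on normalised and by 30.9% on raw values.

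The number of calls rested on single libraries. Without wild-type replicate 3 the calls fell to 4 on normalised and 2 on raw values, and without Ts1Rhr replicate 2 to 5 and 3. Leaving out wild-type replicate 1 left 17 and 1, and leaving out Ts1Rhr replicate 3 left 12 and 1. Without wild-type replicate 2 there were 34 and 535 calls, and without Ts1Rhr replicate 1 there were 41 and 293. Fgf13, Hmga2 and Sfrp2 stayed called on normalised values without any single 1 of the 9 libraries, and Hmga2 also on raw values.

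**Figure D2:**
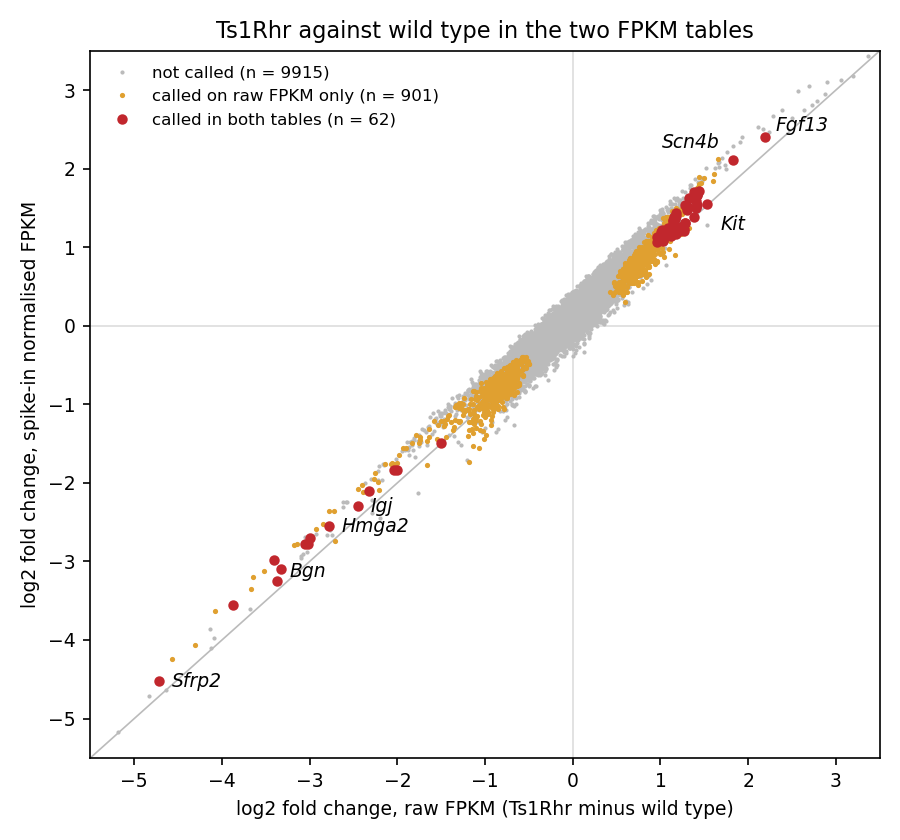
Log2 fold change of each tested gene (Ts1Rhr minus wild type) on raw FPKM (horizontal) and on spike-in normalised FPKM (vertical), with 21 genes outside the plotted range. Points are genes called in both tables (62), on raw FPKM only (901) or in neither (9915), and the called genes lie along the diagonal in both tables.

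Outside small RNAs, the 4 largest falls among called genes were those of Sfrp2, Col6a1, Bgn and Sparc, all of the extracellular matrix, the protein mesh made mostly by stromal cells. Sfrp2, a secreted inhibitor of Wnt signalling, lay at 22.9, 29.7 and 21.0 normalised FPKM in the wild-type libraries and at 3.60, 0.427 and 0.774 in the Ts1Rhr libraries. Every Ts1Rhr library was far below the lowest wild-type one, a 22.9-fold fall (log2 change -4.52, SE 0.55, adjusted p = 0.000991). Col6a1, a chain of collagen VI, lay at 4.62, 5.89 and 5.48 in wild type and at 0.738, 0.279 and 0.449 in Ts1Rhr, 11.7-fold lower (adjusted p = 0.00718). Bgn, which encodes the proteoglycan biglycan, lay at 31.6, 39.2 and 22.7 against 7.23, 1.81 and 2.5, a 9.51-fold fall (adjusted p = 0.00884). In both genes the groups were well apart, and Ts1Rhr replicate 1 was the highest of its group, as it was for Sfrp2. Sparc, a collagen-binding glycoprotein, fell 8.56-fold (adjusted p = 0.00718), from 10.9, 17.5 and 10.4 to 3.08, 1.02 and 1.01. Fn1, fibronectin, fell 6.83-fold (adjusted p = 0.00884), and Col1a2, a chain of collagen I, fell 6.53-fold (adjusted p = 0.0327). Lox, the enzyme that cross-links collagen, fell 3.58-fold (adjusted p = 0.00884).

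Of 23 tested genes in the extracellular matrix list, those 7 fell on normalised values and none rose, and 16 fell and 1 rose on raw values. The median log2 change was -1.78, beside 0.12 for all tested genes. The list holds 42 genes, and the filter on mean raw FPKM can keep members that are high only in wild type. Col1a2, for example, averaged 7.51 raw FPKM in wild type, 0.853 in Ts1Rhr and 0.758 in HMGN1_OE. The counts and the median of the tested genes were thus partly fixed by the filter. Of all 42 listed genes, 39 had a lower mean raw FPKM in Ts1Rhr. The members that fell on raw values alone included Timp1 and Timp3, inhibitors of matrix proteases, and Serpinh1, a chaperone for collagen. Igfbp4, which binds insulin-like growth factors, rose on raw values. Left out 1 at a time, the libraries of the comparison gave 1 to 8 falls in this list on normalised and 0 to 11 on raw values. Spp1, osteopontin, which macrophages also make, carried 91.7% of the list's summed raw FPKM in wild type. Without Spp1 the list took 0.0545%, 0.0737% and 0.0648% of summed raw FPKM in wild type and 0.0369%, 0.0312% and 0.0277% in Ts1Rhr.

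Of the 21 stromal and endothelial markers, 15 had a lower mean raw FPKM in Ts1Rhr, and Tagln, Lepr, Pecam1, Cdh5, Tek and Tie1 had a higher one. Pdgfra and Pdgfrb, receptors for platelet-derived growth factors, averaged 2.05 and 1.24 raw FPKM in wild type and 0.402 and 0.312 in Ts1Rhr. Prrx1, a transcription factor of mesenchyme, averaged 1.34 in wild type and 0.116 in Ts1Rhr, and Cxcl12, a chemokine of the marrow niche, 1.47 and 0.187. Tagln, a protein of smooth muscle, averaged 1.16 and 1.51. Vim, vimentin, which many cell types express, averaged 1706 and 1103 and carried 96.3% of the summed markers in wild type, and without it they took 0.0116% to 0.0132% of summed raw FPKM in wild type and 0.00807% to 0.00856% in Ts1Rhr. Of 10 tested stromal and endothelial genes, Copz2, a subunit of the COPI vesicle coat, fell on normalised values, 3.57-fold (adjusted p = 0.00884), and 4 fell on raw values. The part of stromal cells in the matrix result was not tested.

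Hmga2, a chromatin protein of fetal and early progenitor cells, fell evenly across libraries. Wild-type libraries lay at 9.5, 9.31 and 8.60 normalised FPKM and Ts1Rhr libraries at 1.69, 1.35 and 1.68. The groups were far apart and each was tight, with means of 9.14 ± 0.473 and 1.57 ± 0.196 (SD, n = 3), a 5.84-fold fall (log2 change -2.55, SE 0.31, adjusted p = 0.000991). On raw FPKM it had the adjusted p of 0.000898. Igj, the joining chain of secreted immunoglobulin, lay at 32.7, 18.4 and 17.7 in wild type and at 6.30, 6.86 and 2.11 in Ts1Rhr, 4.89-fold lower (adjusted p = 0.033). Akr1b8, an aldo-keto reductase, fell 4.32-fold (adjusted p = 0.0351). Tm4sf1, a membrane protein of the tetraspanin-like family, fell 6.86-fold (adjusted p = 0.0427).

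Macrophage genes were lower as a group, though none passed the test on normalised values, where 26 of 37 were at an unadjusted p under 0.05, beside 19.5% of all tested genes. All 37 tested macrophage genes had a lower mean log2 level in Ts1Rhr in both tables, beside 40.1% of all tested genes on normalised and 49% on raw values, with a median log2 change of -1.0 on normalised and -0.91 on raw values, and 17 fell on raw values. Fc receptors, complement C1q and the receptor for CSF1 belong to this list. Csf2ra, a chain of the receptor for the growth factor GM-CSF, lay at 55.0, 43.6 and 41.0 raw FPKM in wild type and at 30.02, 20.1 and 22.7 in Ts1Rhr, a 1.92-fold fall on raw values (adjusted p = 0.0325). Its groups did not overlap, and on normalised values its adjusted p was 0.131. Leaving out 1 library gave 0 to 9 falls on raw values in this list. Among the most abundant transcripts of the cultures, Ctss, cathepsin S, averaged 3717 raw FPKM in wild type and 1680 in Ts1Rhr and fell on raw values (adjusted p = 0.0374). Ftl1, the light chain of the iron store ferritin, averaged 18434 and 8084 raw FPKM and fell on raw values as well (adjusted p = 0.0464).

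The lysosome is the compartment that degrades taken-up material. Its 43 tested genes, of which 3 (Ctsb, Ctsd and Ctss) are on the macrophage list too, were likewise all lower on mean log2 level in both tables, and 17 fell on raw values and none on normalised values, where 27 were at an unadjusted p under 0.05 (19.5% of all tested genes were). Their median log2 change was -0.79 on normalised and -0.67 on raw values. Hexa, a subunit of hexosaminidase, lay at 364, 266 and 287 raw FPKM in wild type and at 152, 130 and 129 in Ts1Rhr, so that the groups were apart, 2.21-fold on raw values (adjusted p = 0.0296). Leaving out 1 library gave 0 to 4 falls. Of 15 tested chemokines and related genes of myeloid cells, Ccl7, which attracts monocytes, fell on normalised values, 2.82-fold (adjusted p = 0.0228). It lay at 70.5, 61.4 and 44.7 in wild type and at 30.8, 18.6 and 15 in Ts1Rhr, again with no overlap. Ccl2 and Ccl3, chemokines for monocytes, fell on raw values, as did Pf4, a chemokine of platelets that macrophages also make. None of 11 tested genes of MHC class II presentation was called in either table, with 4 at an unadjusted p under 0.05 in each, where 19.5% of all tested genes on normalised and 30.9% on raw values were, and their median log2 change was -0.58. Summed macrophage markers were lower in the same libraries, by the shares given above, and their part in the lysosome and chemokine results was not tested.

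Among called genes outside small RNAs, the largest rise was that of Fgf13, an intracellular FGF-like protein that binds sodium channels and microtubules. It lay at 2.51, 3.48 and 2.11 normalised FPKM in wild type and at 16.3, 13.9 and 11.9 in Ts1Rhr. The lowest Ts1Rhr library was well above the highest wild-type one, a 5.28-fold rise (log2 change 2.40, SE 0.28, adjusted p = 0.000991). Fgf13 lies on the X chromosome, and without Ts1Rhr replicate 3, the library with the male pattern, its log2 change was 2.51. Scn4b, a beta subunit of sodium channels, lay at 1.17, 2.48 and 1.51 against 7.95, 6.79 and 6.44, 4.30-fold higher (adjusted p = 0.00884). Kit, the receptor for stem cell factor, lay at 2.20, 3.60 and 3.37 in wild type and at 9.03, 10.1 and 8.93 in Ts1Rhr, 3.13-fold higher (adjusted p = 0.0151). All 3 Ts1Rhr libraries were thus close together for Kit, above every wild-type library.

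Further genes rose on normalised values. Nrxn2, a synaptic adhesion protein, rose 3.27-fold (adjusted p = 0.0193), and Gng4, a G-protein gamma subunit, rose 3.18-fold (adjusted p = 0.0281). Gfra2, a co-receptor for neurturin, lay at 3.48, 6.42 and 4.35 in wild type and at 15, 14.5 and 12 in Ts1Rhr, 3.00-fold higher (adjusted p = 0.0208). St3gal6, a sialyltransferase, rose 3.25-fold (adjusted p = 0.033), with Ts1Rhr replicate 1 at 9.93 and the other Ts1Rhr libraries at 5.5 and 4.28. Grb7, an adaptor of receptor tyrosine kinases, rose 2.85-fold (adjusted p = 0.0352). Dock9, an exchange factor for Cdc42, lay at 15.6, 15.1 and 16.1 in Ts1Rhr and at 4.54, 7.12 and 5.49 in wild type, a 2.78-fold rise (adjusted p = 0.017). Tmem59l, Amotl1 and Ccdc135 rose 2.93-fold, 2.86-fold and 3.17-fold. Stat4, a transcription factor of interleukin-12 signalling, lay at 2.74, 3.49 and 2.55 in wild type and at 8.09, 7.11 and 8.33 in Ts1Rhr, 2.70-fold higher (adjusted p = 0.0228). Tgfb3, a TGF-beta ligand, and Tnfsf10, the death ligand TRAIL, rose 2.56-fold and 2.37-fold. Car2, a carbonic anhydrase placed on the erythroid list, rose 2.31-fold (adjusted p = 0.041), from 43.3, 58.2 and 34.2 to 92.7, 115 and 100.2, in libraries where haemoglobin genes were listed at 0. Among 13 tested genes of early progenitors, Kit rose and Hmga2 fell on normalised values, and the median log2 change was -0.26.

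**Figure D3:**
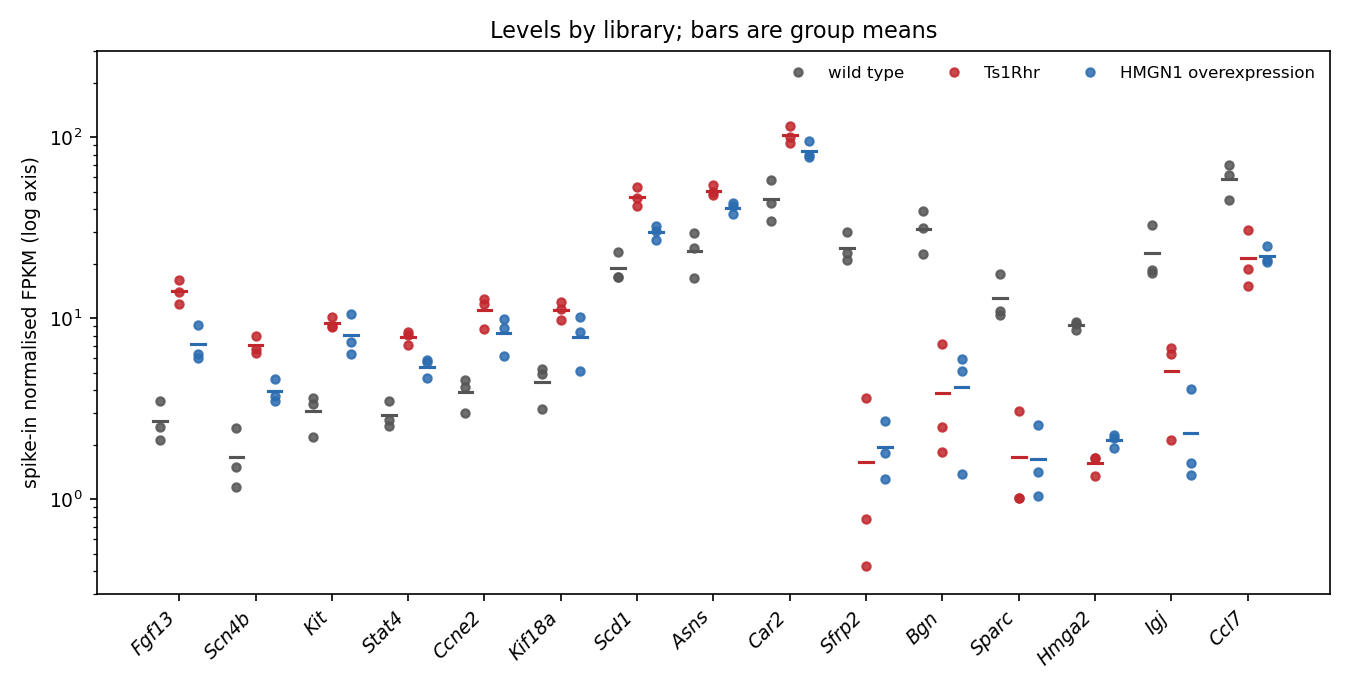
Spike-in normalised FPKM (log axis) of 15 genes in each wild-type, Ts1Rhr and HMGN1_OE library; points are libraries and bars are group means. In every gene shown, the 3 Ts1Rhr libraries lie on 1 side of the 3 wild-type libraries. This held for all 62 called genes, from which the 15 were taken, and is no separate support.

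Of 47 tested genes of mitosis, 45 had a higher mean log2 level in Ts1Rhr on normalised values, beside 59.9% of all tested genes. In the list 3 rose on normalised values and 27 on raw values, and none fell in either table. Their median log2 change was 0.68 on normalised and 0.72 on raw values. Ndc80, the kinetochore protein that grips microtubules, lay at 35.5, 44.4 and 28.2 normalised FPKM in wild type and at 73.7, 106 and 74.1 in Ts1Rhr, 2.36-fold higher without overlap (adjusted p = 0.0393). Kif18a, a kinesin that aligns chromosomes, lay at 3.14, 5.25 and 4.89 against 12.2, 11.3 and 9.73, a 2.55-fold rise (adjusted p = 0.0481). Ska1, a partner of Ndc80 at the kinetochore, rose 2.89-fold (adjusted p = 0.0481), with values of 9.80, 5.91 and 5.90 in Ts1Rhr against 1.96, 3.43 and 2.10 in wild type. Outside the list, Cenpn, a centromere protein, rose 2.60-fold (adjusted p = 0.0351), and Hmmr, a spindle protein that also binds hyaluronan, rose 2.25-fold (adjusted p = 0.033). Hmmr was very even, at 63.3, 61.2 and 61.4 in Ts1Rhr and 27.5, 33.8 and 22.6 in wild type.

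Of 44 tested genes of DNA replication, 42 had a higher mean log2 level on normalised values, again beside 59.9% of all tested genes. In this list 3 rose on normalised and 21 on raw values, and none fell in either table, with a median log2 change of 0.63 in both tables. Ccne2, a cyclin of the entry into S phase, lay at 2.99, 4.57 and 4.15 in wild type and at 12, 12.8 and 8.68 in Ts1Rhr, 2.86-fold higher without overlap (adjusted p = 0.0209). Rfc3, a subunit of the clamp loader, rose 2.29-fold (adjusted p = 0.0481). Pola1, the catalytic subunit of the primase-associated polymerase, rose 2.12-fold (adjusted p = 0.0481), from 14.9, 19.1 and 15.2 to 36.1, 40.2 and 28.1. Pola1 is X-linked, and its log2 change was 1.23 without the library with the male pattern. On normalised values, leaving out any 1 library of the comparison left 0 calls in the mitosis list and 0 to 1 in the replication list. On raw values it left 0 to 23 and 0 to 19.

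The 31 tested genes of homologous recombination and crosslink repair had a median log2 change of 0.81, and 30 had a higher mean log2 level on normalised values (59.9% of all tested genes did). None was called there, with 26 at an unadjusted p under 0.05, beside 19.5% of all tested genes, and 9 rose on raw values. Among these, Exo1, a repair exonuclease, lay at 4.91, 7.43 and 6.06 raw FPKM in wild type and at 12.2, 13.3 and 10.5 in Ts1Rhr, with no overlap (1.96-fold on raw values, adjusted p = 0.032). Blm, the helicase lost in Bloom syndrome, and Chek1, a checkpoint kinase, rose on raw values 2.01-fold and 1.92-fold (adjusted p = 0.0325 and 0.0355). Mnd1, a recombination factor outside the list, rose on normalised values 2.83-fold (adjusted p = 0.0351), from 12.3, 12.9 and 5.63 to 21.3, 30.8 and 30.7. Of 21 tested genes of the G1 phase, none was called on normalised values, with 7 at an unadjusted p under 0.05, beside the same 19.5%. On raw values 4 rose, Ccnd3 and Cdc25a among them, and Ccnd1, cyclin D1, fell, from 11.7, 12.3 and 14.2 raw FPKM to 6.71, 6.25 and 5.76 (adjusted p = 0.0283). In the same Ts1Rhr libraries summed macrophage markers were at 5.63% to 6.15% of raw FPKM, against 8.23% to 10.1% in wild type, and pro-B markers at 0.338% to 0.411%, against 0.198% to 0.306%. Their part in the mitosis, replication and repair results was not tested.

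Promoter windows of 3 of these genes are shown because members of the mitosis and replication lists rose together and promoters of such genes are known for a few shared elements. The windows are the 250 bases before the annotated start, 5′ to 3′ on the gene's strand, from RefSeq on GRCm38.p6, which is not the mm9 build of the expression files. Capitals mark matches on either strand to the CCAAT box (CCAAT, or ATTGG on the other strand), the E2F motif (TTTGGCGC or TTTCCCGC, and their complements) or the CHR element (TTTGAA, or TTCAAA). The Hmmr window is chr11:40733438-40733687 on the minus strand, the Kif18a window chr2:109280488-109280737 on the plus strand, and the Pola1 window chrX:93632156-93632405 on the minus strand. Hmmr was picked after its values were seen.
Hmmr: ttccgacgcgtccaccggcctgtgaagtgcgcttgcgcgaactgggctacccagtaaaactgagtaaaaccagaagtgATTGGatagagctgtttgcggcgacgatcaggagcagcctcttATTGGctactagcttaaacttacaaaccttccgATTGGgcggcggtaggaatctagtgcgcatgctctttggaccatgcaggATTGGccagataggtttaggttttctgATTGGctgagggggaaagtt
Kif18a: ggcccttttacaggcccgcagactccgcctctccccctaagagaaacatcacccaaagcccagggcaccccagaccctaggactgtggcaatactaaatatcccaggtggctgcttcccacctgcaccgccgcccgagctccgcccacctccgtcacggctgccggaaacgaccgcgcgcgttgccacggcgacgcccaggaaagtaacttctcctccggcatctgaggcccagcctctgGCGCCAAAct
Pola1: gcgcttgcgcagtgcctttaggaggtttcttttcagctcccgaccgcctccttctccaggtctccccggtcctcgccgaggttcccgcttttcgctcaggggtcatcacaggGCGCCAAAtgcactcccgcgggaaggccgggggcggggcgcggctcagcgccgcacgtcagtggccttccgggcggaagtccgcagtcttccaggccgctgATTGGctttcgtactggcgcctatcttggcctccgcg
Hmmr held 5 CCAAT boxes, all read as ATTGG, beginning between 172 and 20 bases before the start. Kif18a held 1 E2F match, 10 bases before the start. Pola1 held 1 E2F match at 138 and 1 CCAAT box at 37 bases before the start. The windows of Rfc3 and Ndc80 were also searched: Rfc3 held 1 CCAAT box and Ndc80 no match.

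Over the windows of all tested genes with an entry, 35.5% held a CCAAT box, 10.9% a CHR element, 2.58% an E2F match, and 4.1% both CHR and CCAAT. Among 42 windows of the mitosis list these shares were 69%, 31%, 7.14% and 26.2%. Among 41 windows of the replication list they were 58.5%, 12.2%, 14.6% and 7.32%. Among 44 windows of all genes called higher on normalised values they were 34.1%, 15.9%, 6.82% and 6.82%. Among 10 windows of those called lower they were 20%, 30%, 0% and 10%. Windows were found for 37 of 47 mitosis genes and 35 of 44 replication genes, and for 32 of 46 genes called higher and 10 of 16 called lower. These are counts of letters in these windows, given as a description with no test, and say nothing of binding in these cells.

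Of 22 tested transcription factors of early B cells, none was called on normalised values. An unadjusted p under 0.05 was reached there by 11 of them, beside 19.5% of all tested genes. Lef1, Ets1 and Myb rose on raw values. Lef1, which acts downstream of Wnt and in pro-B cell growth, lay at 68.1, 89.5 and 103 raw FPKM in wild type and at 147, 211 and 197 in Ts1Rhr, 2.14-fold higher (adjusted p = 0.0309). Its groups did not overlap, and on normalised values its adjusted p was 0.0772. The list had a median log2 change of 0.50 on normalised and 0.52 on raw values.

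Of 12 tested genes of V(D)J recombination, which assembles antibody genes, none was called on normalised values. There 6 were at an unadjusted p under 0.05, beside 19.5% of all tested genes. Dntt and Rag2 rose on raw values. The list's median log2 change was 0.52 on normalised and 0.45 on raw values. Dntt, the terminal transferase that adds bases at heavy chain junctions, lay at 54.3, 61.0 and 40.4 normalised FPKM in wild type and at 101, 98.6 and 182 in Ts1Rhr. Ts1Rhr replicate 3 was the highest, and all 3 were above wild type, 2.38-fold on normalised values (adjusted p = 0.0565) and 2.5-fold on raw values (adjusted p = 0.032). Rag2, a subunit of the recombinase, was 2.18-fold higher on normalised values (adjusted p = 0.0565) and rose 1.97-fold on raw values (adjusted p = 0.0309). Its partner Rag1 averaged 26.6 raw FPKM in wild type and 26.8 in Ts1Rhr. The 3 genes of the surrogate light chain rose on raw values: Vpreb1 1.94-fold (adjusted p = 0.0374), Vpreb2 2.03-fold (adjusted p = 0.0448) and Igll1 1.90-fold (adjusted p = 0.0325). Vpreb1 and Vpreb2 are near-identical copies, so their separate values are uncertain. The other 15 tested genes of the pre-B receptor list were not called, and its median log2 change was 0.07 on normalised and 0.08 on raw values, but -0.07 with libraries shifted to the same median. With that shift the median of all tested genes was -0.02.

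Among 16 tested genes of interleukin-7 receptor signalling, Socs2, Ccnd2 and Ccnd3 rose and Socs3 fell on raw values. None of the 16 was called on normalised values, with 4 at an unadjusted p under 0.05, where 19.5% of all tested genes were. Socs2, an inhibitor of cytokine signalling, lay at 70.4, 119 and 107 raw FPKM in wild type and at 177, 209 and 147 in Ts1Rhr (adjusted p = 0.0448). Il7r itself, the receptor, had a log2 change of -0.41 on normalised values (adjusted p = 0.442). Of 13 tested genes of later B and plasma cells, Spn, the sialophorin CD43 that marks pro-B cells among B-lineage cells, rose on normalised values 2.12-fold (adjusted p = 0.0351). It lay at 14.7, 16.1 and 15.7 in wild type and at 30.4, 32.4 and 35.8 in Ts1Rhr, tight and apart in both groups. Igj fell, as given above. Summed pro-B markers were higher in the same Ts1Rhr libraries. That sum contains Vpreb1, Vpreb2, Igll1, Dntt and Rag2 themselves, so it is not a separate measure for them. The part of the marker shares in the B-lineage results was not tested.

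Of 25 tested genes of cholesterol and fatty acid synthesis, Scd1, Scd2 and Elovl6 rose on normalised values, and the median log2 change was 0.39. Scd1, a stearoyl-CoA desaturase, lay at 16.8, 23.2 and 16.9 normalised FPKM in wild type and at 45.8, 52.8 and 41.6 in Ts1Rhr, 2.48-fold higher (adjusted p = 0.0174). Its close relative Scd2 rose 2.31-fold (adjusted p = 0.0389), and Elovl6, an elongase that supplies their substrate, rose 2.48-fold (adjusted p = 0.0351). All 3 genes had Ts1Rhr libraries above every wild-type one. Fads2, a desaturase, and Idi1, of the cholesterol branch, rose on raw values alone. Asns, asparagine synthetase, was the member called on normalised values among 21 tested genes of amino acid supply and ATF4, lying at 24.5, 29.5 and 16.6 in wild type and 47.7, 54.3 and 49.4 in Ts1Rhr, 2.20-fold higher (adjusted p = 0.0481). On raw values 5 of the 21 rose, and Cebpb, a transcription factor also on the macrophage list, fell. The macrophage and pro-B marker shares differed between the same libraries, and their part in the lipid and amino acid results was not tested.

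Among chromatin genes, 11 members of the Polycomb complex PRC2, which methylates histone H3, were tested. None was called on normalised values, with 4 at an unadjusted p under 0.05, beside 19.5% of all tested genes. On raw values 4 rose. Ezh2, the methyltransferase of PRC2, lay at 102, 153 and 121 raw FPKM in wild type and at 222, 256 and 233 in Ts1Rhr, 1.92-fold higher without overlap (adjusted p = 0.0309, and 0.151 on normalised values). Suz12, Mtf2 and Rbbp4, further subunits, were the other 3. Of 9 tested high mobility group genes, 4 rose on raw values while Hmga2 fell in both tables. Hmga1, the closest relative of Hmga2, had a log2 change of 0.15 on normalised values (adjusted p = 0.754). None of 8 tested genes of DNA methylation was called in either table, with 2 at an unadjusted p under 0.05 on normalised and 4 on raw values. Over all tested genes these shares were 19.5% and 30.9%. The part of the marker shares in the chromatin results was likewise not tested.

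For the cytosolic and the mitochondrial ribosomal protein genes the sign of the median differed between the tables. The 75 tested cytosolic ribosomal protein genes had a median log2 change of -0.10 on normalised and 0.08 on raw values, with none called on normalised values, where none was at an unadjusted p under 0.05, and 2 higher on raw values. Mitochondrial ribosomal protein genes, 60 tested, had medians of 0.05 and -0.06. The 76 tested genes of the respiratory chain had a median of -0.25 on normalised and -0.19 on raw values, and only Uqcr11, a subunit of complex III, was called, lower on raw values (adjusted p = 0.0374). The 37 tested proteasome genes had medians of -0.08 and -0.02, and Psme3 rose on raw values. With raw values rescaled to the same sum their median was 0.16, beside 0.19 for all tested genes. None of 29 tested genes of RNA polymerase II was called, with 2 at an unadjusted p under 0.05 on normalised and 4 on raw values, lower shares than the 19.5% and 30.9% of all tested genes. Genes of ribosome biogenesis and other MYC targets, 33 tested, had a median of 0.46, and Ncl, Nop58 and Cad rose on raw values. Neither the 15 tested neutrophil genes nor the 14 of the BCL2 family held a call in either table, with 3 and 0 at an unadjusted p under 0.05 on normalised and 4 in each on raw values. The same was true of 17 unfolded protein response genes, with 0 and 3. The neutrophil list was lower all the same, with a median of -0.62 on normalised and -0.82 on raw values. Of its 15 genes, 13 and 14 had a lower mean log2 level, beside 40.1% and 49% of all tested genes. Medians were -0.08 and -0.33 in the BCL2 family and -0.26 and -0.23 in the unfolded protein response list. Of 20 tested immediate early genes, Klf4, Atf3 and Dusp1 fell on raw values, and the median was -0.50. Bst2 was the member called among 22 tested interferon response genes, lower on raw values (adjusted p = 0.0371).

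**Figure D4:**
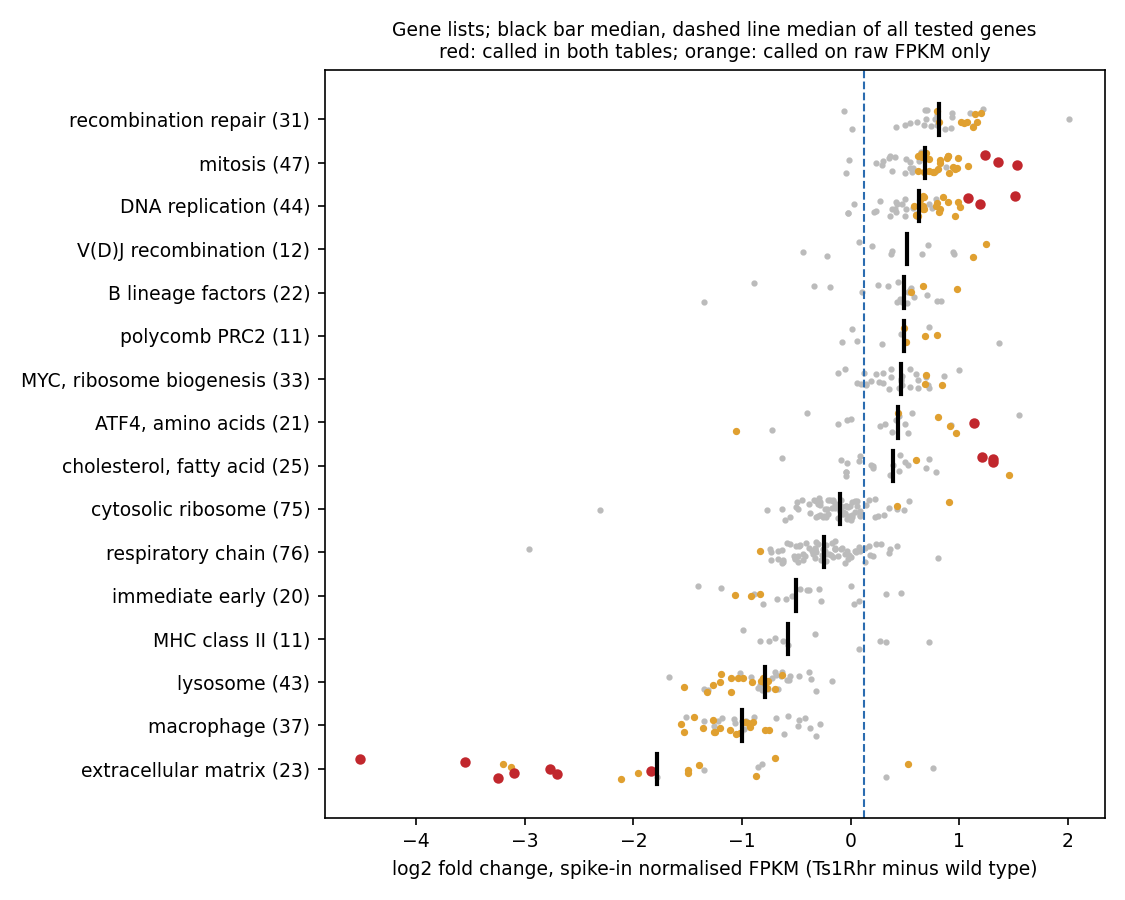
Log2 fold change on spike-in normalised FPKM (Ts1Rhr minus wild type) of each tested member of 16 gene lists, with the number tested in parentheses. Black bars are list medians, the dashed line is the median of all tested genes (0.12), and colours mark members called in both tables or on raw FPKM only; list medians run from -1.78 for extracellular matrix to 0.81 for recombination repair.

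Of 58 tested rows of small RNAs, 3 were called on normalised values, and these were all-or-none in the raw table. Snord17, a small nucleolar RNA, was listed at 0 in all 3 wild-type libraries and at 6.81, 15.4 and 35.7 raw FPKM in Ts1Rhr. Snord15a was listed at 0 in all 3 Ts1Rhr libraries and at 198, 10.2 and 199 raw FPKM in wild type, and Snora74a at 0 in Ts1Rhr and at 6.36, 20.6 and 7.17 in wild type. Such RNAs are mostly not polyadenylated and are shorter than usual fragments, an entry of 0 in a table of FPKM can be a failed estimate, and no fold is given. In the HMGN1_OE libraries Snord15a was listed at 154, 0 and 27.2 raw FPKM, so it varied that much within a genotype.

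Calls were spread over the genome. On raw values the called share of tested genes ran from 6.12% on chromosome 12 to 13.5% on chromosome 6, and chromosome 16 outside the triplicated segment had 27 of 326, or 8.28%, close to the 8.85% of all genes. On normalised values 2 of those 326 were called, Rmi2, a subunit of the BLM complex, and St3gal6. Inside the segment 16 genes were tested, with 3 higher on normalised values (Erg, Ttc3, Chaf1b), 6 on raw values and a median log2 change of 0.59. Chaf1b, a subunit of the histone chaperone CAF-1 that works at replication forks, was the called member of the segment with a role in replication. Hmgn1 lay at 74.8, 71.5 and 46.9 normalised FPKM in wild type and at 127, 122 and 115 in Ts1Rhr, with an adjusted p of 0.0914 on normalised values and a rise on raw values (adjusted p = 0.00923).

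Direction depended on the level of a gene in the normalised table. Tested genes were cut into 5 bins of equal size by mean raw FPKM. In the lowest bin, from 1.00 to 4.10 raw FPKM, the median log2 change on normalised values was 0.27 and 67.0% of genes were higher in Ts1Rhr. The medians of the next 3 bins were 0.23, 0.16 and 0.07, and in the highest bin, from 38.5 raw FPKM upward, it was -0.09 with 42.9% higher. On raw values the 5 medians lay between -0.04 and 0.04. The authors' correction, taken as the median of log2 normalised minus log2 raw, rose from -0.22 in the lowest to 0.31 in the highest bin in wild-type replicate 1 and from -0.23 to 0.08 in wild-type replicate 2. It ran from -0.17 to -0.33 in wild-type replicate 3, and from 0.29 to 0.04, 0.06 to -0.04 and -0.04 to -0.13 in Ts1Rhr replicates 1, 2 and 3. The libraries of a genotype were thus corrected differently, and the groups differed most in the lowest bin.

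The overall level per library, the median log2 normalised FPKM over the tested genes, was 3.71 ± 0.19 in Ts1Rhr and 3.58 ± 0.17 in wild type (SD, n = 3). The difference of 0.13 (SE 0.15), or 1.10-fold, was within the spread between libraries (exact two-sided permutation test, p = 0.5, where 0.1 is the smallest p that 3 libraries against 3 allow). Scaling each library by a single spike-in factor gave a difference of -0.016 (exact permutation p = 1), and for the log2 of summed normalised FPKM it was -0.36 (exact permutation p = 0.4).

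**Figure D5:**
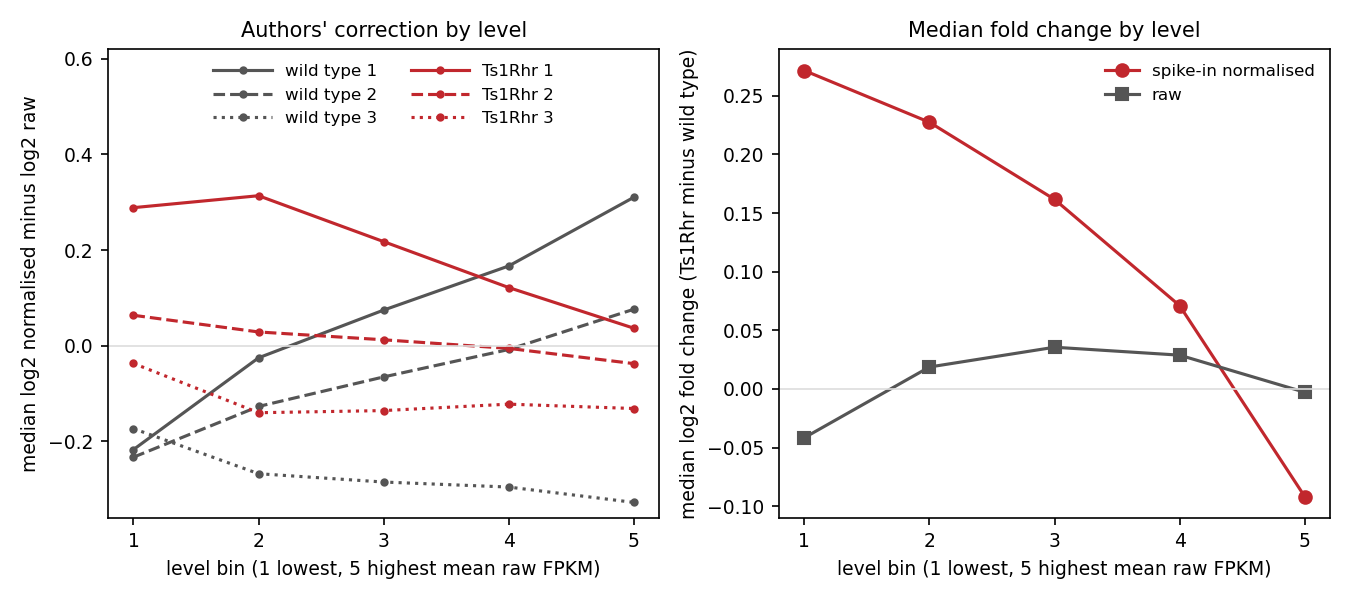
Left, the authors' correction (median log2 normalised minus log2 raw FPKM) in 5 bins of mean raw FPKM for each wild-type and Ts1Rhr library; right, the median log2 fold change (Ts1Rhr minus wild type) per bin in both tables. On normalised values the median falls from 0.27 in the lowest bin to -0.09 in the highest, while on raw values it stays between -0.04 and 0.04.

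Set directly against the HMGN1_OE libraries, which share the culture but not the segment, Ts1Rhr gave no call in either table by limma (0% of 10878 tested), with 475 genes on normalised and 963 on raw values at an unadjusted p under 0.05 and lowest adjusted p-values of 0.117 and 0.0538. A p that misses the threshold does not show that the groups are alike, and strain differs between them by the labels. The comparisons of each mutant group with wild type share the wild-type libraries, so their values are only set side by side. All 46 genes that rose on normalised values had an HMGN1_OE mean above wild type, and 15 of the 16 that fell had one below. These genes were chosen by their distance from the same wild-type libraries, so both counts were partly fixed and are no separate support. Over all tested genes the median log2 change of HMGN1_OE from wild type was itself 0.21. Median log2 changes of HMGN1_OE from wild type in the mitosis, replication, repair and extracellular matrix lists were 0.66, 0.61, 0.68 and -1.77. Those of Ts1Rhr were 0.68, 0.63, 0.81 and -1.78. In the macrophage and lysosome lists they were -0.41 and -0.30 in HMGN1_OE and -1.0 and -0.79 in Ts1Rhr. Over all tested genes they were 0.21 and 0.12. Sfrp2 lay at 1.81, 1.29 and 2.69 normalised FPKM in HMGN1_OE, Bgn at 5.94, 1.38 and 5.10, and Hmga2 at 1.91, 2.25 and 2.17, in each case below all wild-type libraries. Fgf13 lay at 6.05, 6.31 and 9.17, between the wild-type and the Ts1Rhr libraries. Kit lay at 6.36, 7.36 and 10.5, above wild type and in part above Ts1Rhr.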

How the data were processed

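RNA of 9 pooled pro-B cultures, 3 per group, was sequenced after spike-ins had been added. Per the submitters' processing notes, HISAT and Cufflinks 2.0.0 were used with mouse build mm9; no source used here states their settings or the gene annotation. The authors deposited a raw FPKM table and an FPKM table normalised further, which is taken as spike-in normalised because the labels give that purpose for the spike-ins. FPKM are not counts, so depth is unknown and no count test was run. The number of libraries limits the precision. For the 26 spike-ins averaging 1 FPKM or more, library medians deviated by 0.171 raw and 0.0364 normalised (log2, mean absolute deviation).

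Of 23398 rows, 92 spike-ins and 27 date-named rows (16 of them at 1 FPKM or more) were left out. Raw values entered as log2(FPKM + 0.1), with normalised values as log2. limma 3.58.1 in R 4.3.3 was fitted with an intensity trend to all 9 libraries, a mean per group, two-sided, with Benjamini-Hochberg adjustment over 10878 genes and a threshold of 0.05. Sharing the spread of all 3 groups gives 6 residual degrees of freedom. In 24 tested rows some library is listed at exactly 0.01, which can be a failed estimate.

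The comparison, its members and 46 gene lists were chosen with earlier results of these data known, so list counts are descriptions and no list was tested. Genes were named by rule: the 15 largest rises and falls among called, non-overlapping genes with a group mean of at least 5, called members of each list (otherwise the 3 with the smallest raw adjusted p), the 5 most abundant called in each table, small RNAs, and genes called without any single library. Other genes were picked after their values were seen. RefSeq of GRCm38.p6 matched 10824 tested symbols and gave chromosomes and promoters only. The fit was tested on simulated data. Some items are not reported here. Alternatives were the raw table, other pseudocounts, filters and scalings, a fit of the 6 libraries, a replicate block and leaving out each library.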

Additional observations from a re-analysis of the deposited data

How the results depend on the processing

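Called genes on normalised values (46 higher, 16 lower) became 204 and 63 with only the Ts1Rhr and wild-type libraries fitted, 1 and 7 with no filter on low genes, and 251 and 442 with libraries shifted to the same median, so the share of higher calls depended on centring. On raw values (467 higher, 496 lower) they became 118 and 146 with no filter, 21 and 29 when each library was scaled by a single spike-in factor, and 697 and 233 when libraries were brought to an equal sum, which moved the median log2 change of all genes to 0.19. A minimum of 5 FPKM or a pseudocount of 1 kept all 4 counts within 1.5 times.

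With a replicate block the counts were 72 and 47 on normalised and 147 and 167 on raw values. Equal numbers showed no clear pairing of the samples: correlations of same-numbered deviations were 0.01, -0.10 and -0.09 on normalised values, and wild-type replicate 3 correlated best with Ts1Rhr replicate 2 (0.18). Deviations from a group mean offset each other, so these correlations cannot exclude a weak pairing.

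Leaving out 1 of the 9 libraries gave 1 to 169 higher and 3 to 45 lower calls on normalised values, and 0 to 548 higher and 1 to 728 lower on raw values. The overall level differed by 0.04 to 0.22 without 1 library, by -0.016 with 1 spike-in factor (exact permutation p = 1) and by -0.36 for summed FPKM (exact permutation p = 0.4). None of the 99 named genes changed direction between the tables or with a single library left out. These genes were chosen as called, so this was largely fixed by the choice and is no separate support. The cause of these shifts was not tested.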
